A study of Homo sapiens with 11 samples.

Results

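The strong CTCF sites shared by all genotypes were chosen by measured values: a WT summit counted if its value in the WT list was at least 10 and if both an ORC2 deletion summit and an ORC2 rescue summit lay within 500 bp. The value of a summit is −log10 q as the peak caller gave it, so a larger value means a clearer peak in that list. There were 4256 such sites among 19044 WT summits, of which 4433 reached a value of 10. CTCF binding was profiled by CUT&RUN, in which an antibody directs a nuclease to a bound protein and the released DNA is sequenced, in the human colorectal cancer line HCT116 with p53 deleted (HCT116 p53-/-). The groups were WT cells (p53-/- with ORC2), an ORC2 deletion line that is 1 CRISPR/Cas9 clone of them, and ORC2 rescue cells, selected clones of the deletion background given ORC2 from the plasmid pLHCXORC2. All groups therefore lack p53, each group held 2 CTCF libraries, and the deposited lists give 1 list per group, so the spread between replicates is unknown and clone and genotype cannot be told apart.

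CTCF is a DNA-binding protein whose row of zinc fingers reads an asymmetric motif, so that each bound motif has a direction. Cohesin, the ring complex that extrudes chromatin loops, is stopped at CTCF sites, and the anchors of loops mostly carry motifs that point towards each other. Sites of high occupancy are largely common to many cell types and often lie at domain boundaries. ORC2 is a subunit of the origin recognition complex, which marks the places where DNA replication can start.

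The sequences below are matches to the CTCF motif near the summits of sites that fell in promoters, shown because the motif bears on whether CTCF itself can bind there. A promoter window here is the stretch from 250 bases before to 50 bases after a gene start, taken from RefSeq (GRCh38.p14, the assembly of hg38), and 203 of the 4256 sites lay in 226 such windows. The core of the CTCF motif was searched on both strands as CCA, any 2 bases, AG, any 2 bases and GGC. In 35 of these windows a match was found, with its centre at a median of 113.5 bp from the WT summit. The centre was within 100 bp of the summit in 14 of them. The 12 stretches shown are from the sites with the highest WT value among those with the motif within 100 bp, 1 per site. Each is read 5′ to 3′ on the strand of the motif, with the core in capitals.
LOC102724497: cctcctCCAGCAGTGGGCcgccca
LINC02874: cctgagCCAGCAGGTGGCacagct
DMKN: atcctgCCACCAGGGGGCagcaag
ANKRD6: ccccacCCAGGAGAGGGCtgcaga
SCIRT: tagtggCCAGCAGAGGGCgccgcc
REPS1: cgccggCCACCAGGGGGCgctgcg
EIF2S1: agctaaCCATGAGATGGCgctgtg
ALAD: gggaggCCACGAGGGGGCgcagga
LOC101929719: ttaggtCCACCAGGTGGCgacaga
CD8A: gtcggcCCAGCAGGGGGCggtgct
SF3A3: ctcccaCCAGCAGGTGGCactgtt
MB: ttgttgCCACTAGATGGCagtagg

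Windows with a strong shared site held the core motif far more often than promoters at large. It was found in 35 of 226 windows, 15.5% (95% Wilson interval 11.4 to 20.8), beside 2.41% of all 34961 promoter windows. The difference from all windows without such a site was 13.2 percentage points (95% Newcombe interval 9.02 to 18.4). Intervals here cover counting error only, since sites are not replicates of a genotype and neighbouring sites share their surroundings. With a looser pattern that lets any base stand for the A of CCA, and so contains every match of the first, 39.8% of these windows matched (33.7 to 46.3) beside 10.6% of all windows. Base composition differed as well: the median GC content was 63.8% in windows with a strong shared site and 58.7% in all windows, and its part in the motif counts was not tested.

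The motif was found at weak sites about as often as at strong ones. Weak shared sites are the 9834 WT summits with a value below 10 and both partners within 500 bp. Among 388 windows with a weak shared site and no strong one, 15.7% held the core motif (12.4 to 19.7), and the difference of strong from weak windows was -0.235 points (-5.96 to 5.99). That interval leaves room for a difference of several points either way.

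Among the 12 printed sites, the LOC102724497 promoter (chr2:74715130-74715153, plus strand) had the highest values, 34.9 in WT, 90.2 in the deletion list and 48.0 in the rescue list. At DMKN, which encodes the epidermal protein dermokine (chr19:35510548-35510571, plus strand), the values were 21.9, 28.7 and 13.0. The promoter of REPS1, an adaptor protein of endocytosis (chr6:138988364-138988387, minus strand), carries the same 12-base core as DMKN and had 16.0, 39.8 and 17.3. This core was the most frequent, at 4 sites, and 26 different cores occurred in all.
EIF2S1, the alpha subunit of a translation initiation factor (chr14:67360078-67360101, minus strand), had 16.0, 23.2 and 11.3. ALAD, an enzyme of haem synthesis (chr9:113401502-113401525, plus strand), had 13.7, 15.8 and 6.21. At the promoter of MB, which encodes myoglobin (chr22:35623457-35623480, minus strand), the values were 11.2, 10.2 and 4.52, the lowest WT value of the 12. The lowest rescue value of the 12 was 3.74 at SF3A3, a splicing factor subunit. The rule placed a partner of each list within 500 bp of the WT summit and not at the motif: at LINC02874 the deletion summit had a signed distance of -236.5 bp from the motif centre, where a negative value means the 5′ side.

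In promoter windows, which were searched for the motif over their whole length, summits stood beside a match more than on it. The 35 windows held 34 distinct motif matches, and with distances read on the strand of the motif, the WT summit lay on its 5′ side at 25 of 34 (73.5%, 56.9 to 85.4). The deletion partner did so at 25 and the rescue partner at 22 of the 34 (64.7%, 47.9 to 78.5). The median signed distance was -96.5 bp in WT, -105.5 bp in deletion and -92.5 bp in rescue, a negative value meaning the 5′ side. At 21 matches all 3 summits were on the 5′ side, at 8 all were on the 3′ side, and at 5 the lists were on different sides. Weak shared sites had a like share in WT, with 42 of 54 motifs (77.8%, 65.1 to 86.8). Of 19 motifs on the strand of the gene, 17 had the WT summit on the 5′ side (89.5%, 68.6 to 97.1), and of 15 on the other strand 8 did (53.3%, 30.1 to 75.2). These intervals overlap, and the difference was not tested. At weak shared sites the WT shares stood in the opposite order, with 26 of 36 (72.2%, 56.0 to 84.2) and 10 of 12 (83.3%, 55.2 to 95.3), while the deletion partners of weak sites had 30 of 36 and 6 of 12. The rescue partners of weak sites had 33 of 36 (78.2 to 97.1) and 5 of 12 (19.3 to 68.0). Deletion and rescue partners of strong sites also had the higher share on the strand of the gene. That order thus held in each class and list except for WT summits of weak sites. With the A of CCA left free, it held in each class and list. The WT shares were then 85.7% and 44.4% at strong sites, and 71.7% and 45.7% at weak ones. The order by gene direction was not tested. Strong shared summits in promoter windows lay before the gene start in 207 of 226 windows, at a median of -164.5 bp from it. Over all promoter windows, with or without a site, the motif centre lay at a median of -91.5 bp from the gene start. The part of this position in the side of the summit was not tested.

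**Figure D1:**
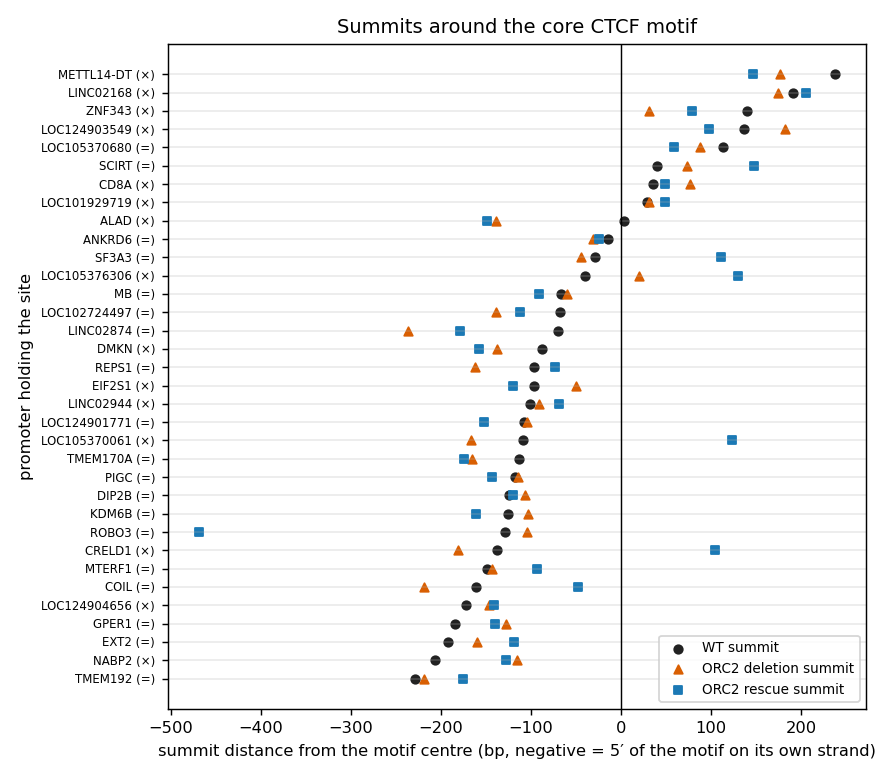
Signed distance in bp (x axis) of the WT, ORC2 deletion and ORC2 rescue summits from the centre of the core CTCF motif, for the 34 motif matches in promoter windows with a strong shared site (y axis; = marks a motif on the strand of the gene, × one on the other strand). Most points lie left of 0, on the 5′ side of the motif, with 25 of 34 WT summits there, and the × rows are spread over both sides.

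The rule asked for a value of 10 in WT and for the presence of partners, and the values of the partners were left free. The WT values of the 4256 sites had a median of 13.8 (lowest 10.0, highest 728.2). Their deletion partners had a median of 21.4, from 2.69 to 1461, and their rescue partners a median of 13.7, from 1.38 to 1585. Values are not scaled between lists, so these medians show where the sites stand in each list and not a change of binding. In the deletion list 93.1% of partners had a value of at least 10 (92.3 to 93.9), where 39.3% of all deletion summits did. In the rescue list 70.1% did (68.7 to 71.4), where 26.7% of all rescue summits did. At weak shared sites 58.5% of deletion partners (57.5 to 59.5) and 22.4% of rescue partners (21.6 to 23.3) had a value of at least 10.

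The strong sites of WT cells were thus found towards the top of the other lists. The deletion partners had a median percentile of 90.3 within their list, and 51.0% were among its top 10%. The rescue partners had a median percentile of 85.3, and 38.3% were among the top 10%. Both partners reached 10 at 2917 sites (68.5%) and neither did at 226 (5.31%). Ranks of the sites were moderately correlated between the lists. The Spearman correlation over the 4256 sites was 0.58 between WT and deletion values, 0.57 between WT and rescue and 0.73 between deletion and rescue. The rule cut the WT values at 10 and left the partner values free. Correlations with WT values therefore cannot be set beside that between deletion and rescue. These correlations describe the same sites in pooled lists that share the antibody and local sequence.

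**Figure D2:**
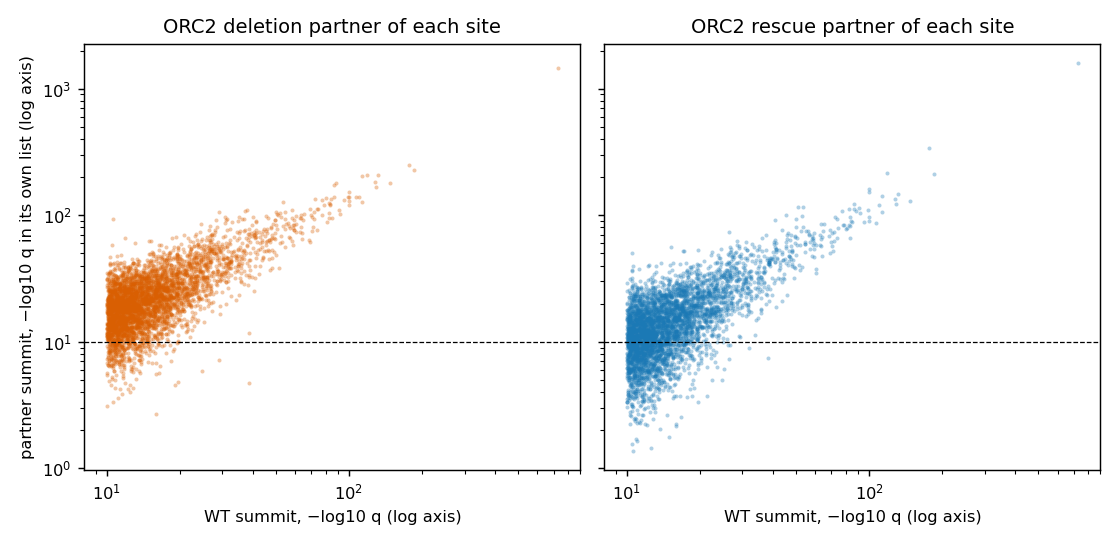
Value of the ORC2 deletion partner (left) and ORC2 rescue partner (right) against the WT value at each of the 4256 sites, as −log10 q on log axes, with 1 point per site and a dashed line at 10. The deletion points lie mostly above the line (93.1%), the rescue points less so (70.1%), and the point at the upper right of both panels is a site that IgG also marks.

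Some of the sites with the highest values lay in sequence that IgG marks as well. The highest WT value, 728.2, was on chromosome 3 at 93470561, where the deletion and rescue lists had 1461 and 1585, and an IgG summit lay 16 bp away. In all, 12 of the 4256 sites lay within 1 kb of an IgG summit. The other 8 of these with a WT value of at least 40 were on chromosome 17 at 26603915 (177.2 in WT), on 16 at 46390687 (118.2) and 34588209 (100.3), on 1 at 125180187 (99.98) and 143214726 (40.9), on 17 at 25920211 (53.2) and 26620029 (45.6), and on 21 at 8234496 (53.04). All 12 lay more than 10 kb from any protein-coding gene and 37685 bp or more from a gene start. The part of the IgG signal in the CTCF values of these sites was not tested. Without them the correlations above were 0.57, 0.57 and 0.72. Other high sites had neither an IgG summit within 1 kb nor a protein-coding gene within 10 kb. The highest of these lay on chromosome 11 at 119534125, with values of 113.6 for WT, 203.7 for deletion and 141.0 for rescue. The next, on chromosome 6 at 132279860, had 100.02, 120.8 and 90.4. Sites on chromosomes 1 (46442633), 4 (54971654) and 1 (204807269) followed with 95.3, 85.2 and 84.2 in WT.

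At genes, the highest site lay inside PDZD7, a scaffold protein of hair cells (chromosome 10, 101013210), with values of 185.9 in WT, 228.3 in deletion and 211.0 in rescue. A site 4317 bp outside GABRR3, a GABA receptor subunit (chromosome 3, 98039632), had 147.6, 179.7 and 129.9. Inside FGD2 (chromosome 6, 37018531) the values were 131.9, 209.3 and 146.0. The summits of the lists stood close together at these 3 sites, with partners 6 to 71 bp from the WT summit.
Sites inside CACNB4, a beta subunit of voltage-gated calcium channels (chromosome 2, 152025935), and USP10, a deubiquitinase (chromosome 16, 84738524), had 129.5 and 128.2 in WT. Their deletion values were 166.7 and 183.3, and their rescue values 123.4 and 133.3. At USP10 the deletion summit was 2 bp and the rescue summit 23 bp from the WT summit. The site 4587 bp outside CYLD, a deubiquitinase of NF-κB signalling (chromosome 16, 50806522), had 113.4, 127.4 and 105.4. It lay 150 bp from the gene start of LINC02168, not of CYLD.

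Genes of the colon epithelium were among them. CEACAM5, which encodes the carcinoembryonic antigen, had a site 1701 bp outside the gene, beyond its start (chromosome 19, 41706925) with 91.1 in WT, 110.9 in deletion and 114.7 in rescue. CDX1, a homeobox transcription factor of the intestine, had one 5118 bp outside (chromosome 5, 150161660) with 83.8, 119.5 and 82.6. DNASE1L3, a secreted nuclease, and IGF2BP1, an mRNA-binding protein, had 109.7 and 107.0 in WT. At IGF2BP1 the rescue value of 87.4 was below the WT value and the deletion value of 140.1 above it. Over all 4256 sites the deletion value was above the WT value at 81.5% and the rescue value at 43.1%, in lists not scaled to WT. EFHD1, MCOLN2, ADAMTS8, TMEM87B, TRIM44, SCOC, TMIGD1, CA8, EIF1AD, PTPRZ1 and RRP12 followed, with WT values from 99.7 down to 73.7. AKR1B1, which encodes aldose reductase, ERCC4, a nuclease subunit of nucleotide excision repair, SLC30A4-AS1 and PSD2 completed the 25 highest. Across the 25, deletion values ran from 81.4 at SLC30A4-AS1 to 228.3 at PDZD7, and rescue values from 51.9 at SLC30A4-AS1 to 211.0 at PDZD7.

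**Figure D3:**
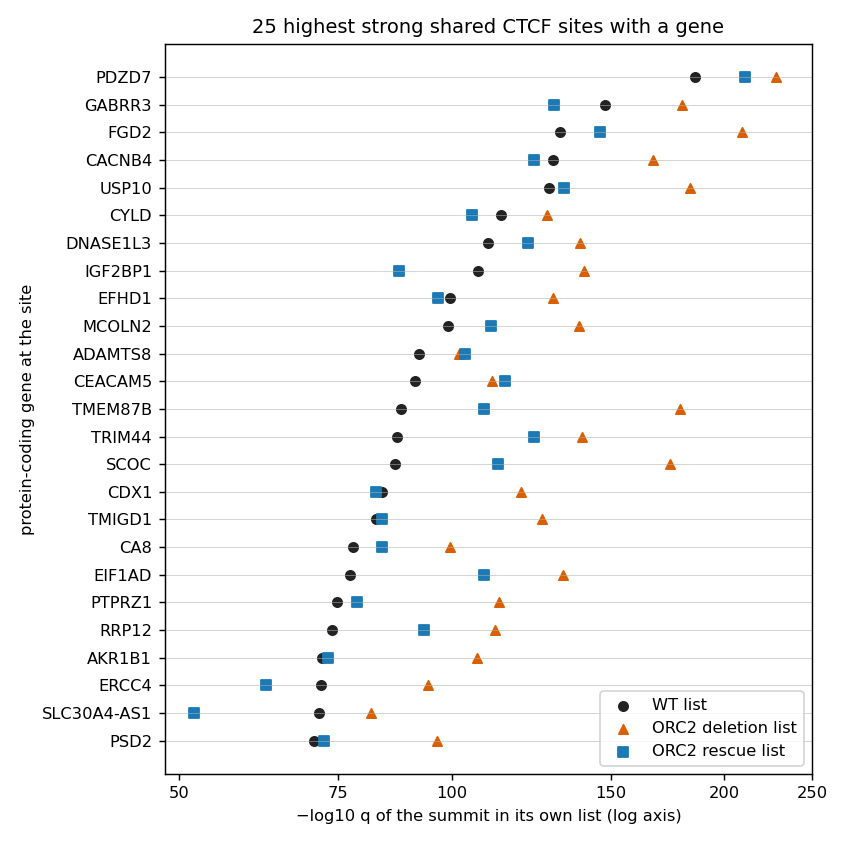
Values of the 25 strong shared sites with the highest WT value that lie in or within 10 kb of a protein-coding gene (y axis), as −log10 q in the WT, ORC2 deletion and ORC2 rescue lists (x axis, log scale). The deletion point lies right of the WT point in every row, in a list whose values are not scaled to WT, and the rescue points lie on both sides of it.

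Some sites that were strong in WT had a value below 10 in another list. The following were chosen after their values were seen. On chromosome 11 at 116276682, a site with no protein-coding gene within 10 kb had 38.7 in WT and 42.5 in rescue but 4.76 in deletion, although the deletion summit was 18 bp away. Inside RAB7B, a small GTPase of endosomes (chromosome 1, 205984243), the values were 19.2 in WT, 4.57 in deletion and 5.69 in rescue. Inside TOX2, an HMG-box protein (chromosome 20, 43955786), they were 16.0, 5.61 and 2.14.
In the other direction, a site 8873 bp outside RXRA, the retinoid X receptor alpha (chromosome 9, 134449458), had values of 10.7 for WT, 92.8 for deletion and 39.9 for rescue. Inside YPEL1 (chromosome 22, 21713180) the values were 10.5, 57.8 and 36.2. Inside PPTC7, a mitochondrial phosphatase (chromosome 12, 110552285), they were 10.5, 21.9 and 50.0. With 1 list per genotype, none of these differences could be set against a spread between replicates.

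The values just inside and just outside the limit of 10 were as follows. The 5 lowest strong shared sites all had a WT value of 10.0065 as rounded, among them sites in or near HEYL, PCSK5 and ZNF469. The 5 WT summits just below 10, all at 9.99818, included sites in or near PIK3CD and KCNK17, and the 5 shown all had both partners within 500 bp, as did 82.1% of WT summits with values from 5 to 10. Deletion values were 6.85 to 35.2 just above the limit and 5.14 to 17.2 just below it. Because many summits have the same value, the order within these groups is arbitrary.

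Strong WT summits without both partners numbered 177 of 4433, so 96.0% of strong WT summits were shared (95.4 to 96.5). Of all WT summits, 74% had both partners. The rule used both of these shares. The deletion list held 31112 summits, 12236 of them at 10 or more, and the rescue list 20810, with 5564 at 10 or more. The part of this difference in length in the counts that follow was not tested. Of the 177, 134 lacked only the rescue partner, 27 only the deletion partner and 16 both, and 33 had both partners within 1 kb. Their highest WT values were 36.5 inside CDKAL1, 28.0 near PHACTR3, 27.5 inside IRF4, 27.1 at a site with no protein-coding gene within 10 kb (chromosome 8, 104759949) and 26.2 inside TAF4B. At IRF4, a transcription factor of lymphoid cells, the deletion list had a summit at 90 bp with a value of 28.5 and the rescue list had none within 10 kb.

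Partner summits of strong sites stood closer to the WT summit than those of weak sites. The median distance was 42 bp to the deletion and 45 bp to the rescue summit for strong shared sites, and 69 and 71 bp for weak ones. Deletion partners lay within 100 bp at 82.1% of strong and 63.7% of weak sites, a difference of 18.4 percentage points (16.9 to 19.8). For rescue partners the shares were 79.1% and 62.2%, a difference of 16.9 points (15.4 to 18.5). At 31.9% of strong sites the summits of all 3 lists fell within a span of 50 bp (30.5 to 33.3), against 16.7% of weak sites. At 190 strong sites, 4.46%, a partner was more than 250 bp away.

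The distance fell in steps with the WT value. It was 50 bp (deletion) and 55 bp (rescue) at WT values from 10 to 12, 39 and 42 bp from 15 to 20, and 24.5 and 35 bp at 50 or more. Neither side was preferred: 49.9% of deletion partners and 49.2% of rescue partners lay at a higher coordinate than the WT summit. The deletion and rescue partners lay a median of 40 bp from each other, about as far as each lay from WT. The 4256 sites had 4255 distinct partners in each list, so that hardly any partner was counted for more than 1 site.

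Relative to genes, strong shared sites lay outside genes more often than weak ones. Inside the span of a RefSeq gene of any kind lay 55.7% of strong sites (54.2 to 57.2) and 60.3% of weak sites, a difference of -4.59 points (-6.37 to -2.81). For spans of protein-coding genes the shares were 42.2% and 48.5%, a difference of -6.26 points (-8.03 to -4.47). Another 12.4% of strong sites lay in a lncRNA gene and no protein-coding one. The gene table gives no exons or introns, so these are not told apart here.

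Strong sites were nevertheless nearer to gene starts. Gene starts on chromosome 8, which held 263 strong sites, were not used here. Of the other 3993 strong sites, 518 lay within 1 kb of a gene start (13.0%, 11.97 to 14.1), against 9.84% of weak sites, a difference of 3.13 points (1.95 to 4.36). The median distance to a gene start was 16921 bp for strong and 20946 bp for weak sites. More than 50 kb from any gene start lay 19.6% of strong and 24.7% of weak sites, a difference of -5.07 points (-6.56 to -3.55). The share within 1 kb was 10.96% at WT values from 10 to 12 (9.35 to 12.8) and 20.9% from 30 to 50 (15.9 to 26.8). At 50 or more it was 6 of 88 sites, 6.82% (3.16 to 14.1). This top class of 92 sites holds 7 of the 12 sites near IgG summits.

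**Figure D4:**
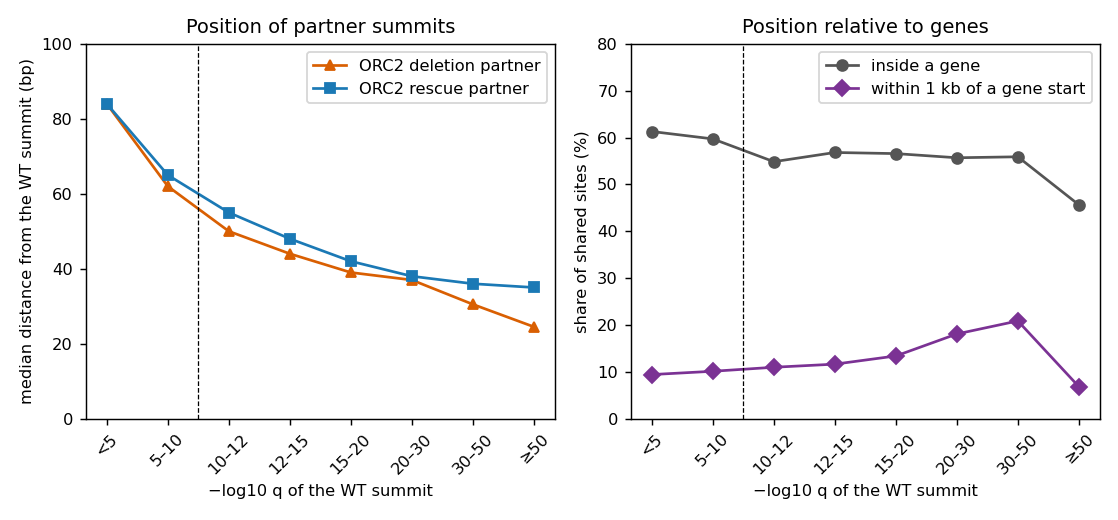
Left, median distance in bp of the ORC2 deletion and ORC2 rescue partners from the WT summit; right, share of sites inside a gene and within 1 kb of a gene start (%), both for shared sites in classes of the WT −log10 q (x axis). The dashed line marks the value of 10, right of which lie the strong shared sites; distances fall from 84 bp in the lowest class to 24.5 and 35 bp in the highest, and the gene start share peaks at 20.9%.

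By chromosome, strong shared sites made up 7.16% of WT summits on X (30 of 419; 5.06 to 10.0) and 31.0% on 17 (305 of 983; 28.2 to 34.0). The next lowest was chromosome 4, with 15.6%, and the next highest chromosome 8, with 28.7%. The share of strong WT summits that were shared varied less, from 90.5% on chromosome 18 (57 of 63) to 98.9% on 22 (87 of 88). On the first 30 Mb of chromosome 6 there were 34 strong shared sites among 46 strong WT summits. The unshared summits inside CDKAL1 and IRF4 named above lie in this segment. The copy number of the chromosomes in these clones was not measured, and its part in these shares was not tested. Neighbouring strong sites were a median of 221772 bp apart, from 123042 bp on chromosome 17 to 1674460 bp on X. Another strong shared site lay within 10 kb at 422 sites, 9.92% (9.05 to 10.8).

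In or within 10 kb of a protein-coding gene lay 2859 of the sites. Read the other way, 16.2% of 19970 protein-coding genes had a strong shared site within 10 kb. This share is the background for the gene lists that follow, which differ in gene length and in how closely their genes lie together. Only protein-coding genes of each list were counted. A site counted for a gene can lie up to 10 kb outside it, and inside or nearer to another gene.

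HOX genes, which pattern the body axis from 4 clusters, had a strong shared site near 13 of 39 genes (33.3%), but only 4 different sites lay behind this count. The site with the highest value lay inside HOXB6 (chromosome 17, 48602787) and was also within 10 kb of HOXB5, HOXB7 and HOXB8. Its values were 24.8 in WT, 26.9 in deletion and 14.6 in rescue. A site inside HOXA3 (chromosome 7, 27150863), also near HOXA5, HOXA6 and HOXA7, had 20.5, 39.4 and 18.9. The site 1187 bp from HOXA9 (27161251) had 17.4, 27.0 and 17.0, and that near HOXD13 (chromosome 2, 176097730) had 10.0, 14.0 and 8.91.
Clustered protocadherins, neuronal cell adhesion proteins, had 18 of 53 genes (34.0%), all through 1 site on chromosome 5 at 141412744. It lies inside PCDHGA1, PCDHGA2, PCDHGA3 and PCDHGB1, whose spans overlap, and had values of 11.4 for WT, 14.8 for deletion and 4.07 for rescue. The shares of both families therefore count the same sites many times.

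Cohesin, condensin and other architectural factors had a strong shared site near 6 of 28 genes (21.4%, 10.2 to 39.5, an interval that holds the background share). MAZ, a zinc finger protein found with CTCF, had values of 18.6 for WT, 19.3 for deletion and 16.9 for rescue. That site lay 5102 bp outside MAZ. SMC3, a core subunit of cohesin, had 14.4, 12.9 and 12.7. BPTF, a chromatin remodeller subunit, had 13.2, 13.3 and 8.37, and ZNF143 had 12.2, 20.6 and 3.07.
Of genes of replication origin licensing and firing, 3 of 28 (10.7%) had one. MCM10, a factor of replication initiation, had values of 29.9 for WT, 34.0 for deletion and 16.2 for rescue at 402 bp outside the gene. RECQL4, a helicase, had 26.9, 25.1 and 16.7 at 2399 bp outside the gene. ORC2 itself, the deleted gene, had a strong shared site inside its span near the upper end (chromosome 2, 200963505) with 10.4, 18.8 and 12.3. Peaks do not show whether the gene is intact, so this does not check the deletion.

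Intestinal epithelium genes had 6 of 25 (24.0%, 11.5 to 43.4), with CDH17, an intestinal cadherin (36.3 in WT, 94.0 in deletion, 66.5 in rescue), next after CEACAM5 and CDX1. Cell cycle and p53 pathway genes had 8 of 35 (22.9%, 12.1 to 39.0). CCND2, which encodes cyclin D2, led with 31.6, 34.7 and 19.6, followed by BAX, a pro-apoptotic protein (14.4, 14.5 and 13.1), MYC (14.3, 31.3 and 11.3) and CCND3 (13.5, 27.9 and 10.1). The BAX site lay 9469 bp outside the gene, the CCND2 site 2766 bp and the MYC site 1471 bp, and the CCND3 site lay inside. Ribosomal protein genes had 13 of 80 (16.2%), the background share. RPL26 had a site 271 bp outside the gene (chromosome 17, 8383464) with 64.2, 64.7 and 47.3, and RPL35, RPL29 and RPS27 had 41.8, 28.5 and 28.3 in WT.

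Imprinted genes, expressed from 1 parental copy, had a strong shared site near 3 of 32 (9.38%, 3.24 to 24.2). IGF2 had one 2194 bp outside the gene (chromosome 11, 2151760) with 41.0 in WT, 39.9 in deletion and 42.7 in rescue, L3MBTL1 had 14.9, 40.1 and 25.3, and DIRAS3 had 12.3, 35.9 and 25.9. ZNF genes, mostly zinc finger transcription factors, had 35 of 509 (6.88%, 4.99 to 9.41), led by ZNF77 with 39.8 in WT, ZNF385C with 36.7, ZNF469 with 30.5 and ZNF205 with 29.3. Olfactory receptor genes had 12 of 390 (3.08%, 1.77 to 5.30), of which OR10P1 had 21.9, OR52M1 16.6, OR5B21 16.2 and OR5A2 14.4 in WT. The intervals of the ZNF and olfactory receptor lists lie below 16.2%. Olfactory receptor genes are short, with a median span of 2985 bp against 24190 bp over all protein-coding genes, and ZNF genes have a median span of 23605 bp. The part of gene length and clustering was not tested.

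**Figure D5:**
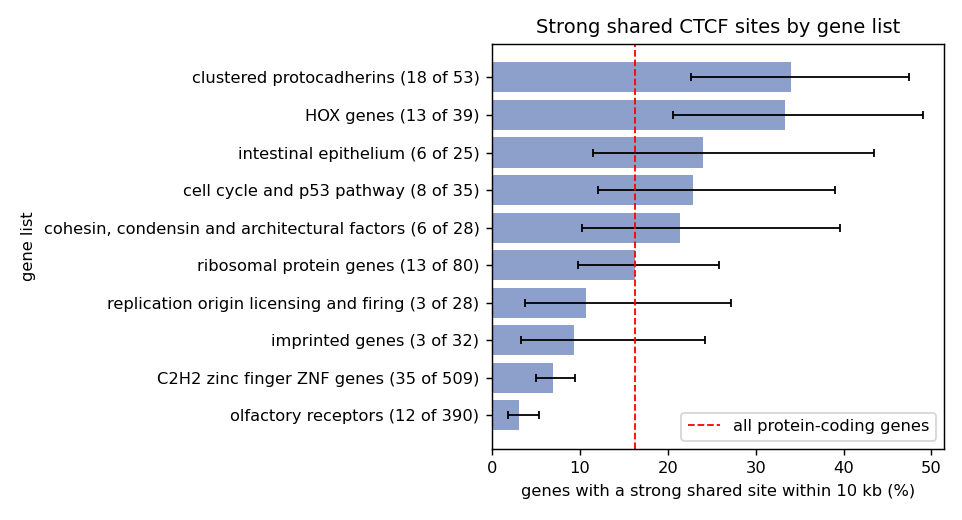
Share of the protein-coding genes of each list with a strong shared CTCF site within 10 kb (x axis, %), with 95% Wilson intervals as error bars, counts in the labels and a dashed line at the share over all protein-coding genes (16.2%). Olfactory receptor (3.08%) and ZNF genes (6.88%) lie below the line with their intervals, and the clustered protocadherin and HOX bars rest on 1 and 4 sites.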

How the data were processed

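CTCF and IgG CUT&RUN was done in 11 libraries of HCT116 p53-/- cells in 6 groups, with 2 libraries per group except 1 for rescue IgG. The submitters' processing notes name the build hg38 and, in no stated order, SAMtools 1.12, MACS2, FastQC 0.11.5 and Bowtie2 2.2.9. How peaks were called, and whether against IgG, is not given in the sources used here. In the summit lists, the authors deposited the −log10 q of each summit. The unit was taken from the lowest CTCF values, just above the −log10 of 0.05. The other deposited files, the authors' up and down lists, hold region starts and ends only. Each CTCF list names no replicate and was taken as the pool of its group. Sequencing depth is unknown.

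Summits on chromosomes 1 to 22 and X were matched to the nearest summit of another list, 1-based. Genes (59094 of 59792 table entries) and 34961 promoter sequences came from RefSeq GRCh38.p14. Shares have 95% Wilson and differences 95% Newcombe intervals, and no other test was run. The matching was tested on simulated lists and returned 90.3% shared where 90.3% had been made. The simulated summits lay far apart with all non-partners beyond 500 bp. This checks the code and not the effect of unrelated neighbouring summits in the real lists. Named genes were the 25 highest sites with a gene, sites at the value limit, up to 5 unshared strong summits and up to 4 genes per list; 1 of these is not reported here. The members and lists were chosen with earlier results of these data known. Alternatives were other distances, value minimums, windows and motif patterns, 1 site per 500 bp, equal list lengths and lists without sites near IgG. The loosest motif pattern and the side of the summit were added after seeing the data. Python 3.11.15, NumPy 2.4.6, pandas 2.3.3 and matplotlib 3.10.9 were used.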

Additional observations from a re-analysis of the deposited data

How the results depend on the processing

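Of 67 values under alternative settings, 49 kept their direction and side of 0 or stayed within the interval (for counts, 1.5 times) of the reported value, and 18 moved. Shares and counts could not change direction by these rules, since only differences have a sign, and no difference did. The differences between strong and weak sites in partner distance, gene spans and gene starts kept their sign, and their intervals excluded 0 in each setting that gave a value. Matching within 100 and 50 bp gave no partner distance, since all partners are then within 100 bp by construction. The share of strong WT summits with both partners was 67.2% within 100 bp, 34.8% within 50 bp and 96.8% within 1 kb. It was 87.3% at WT values of at least 5, 98.9% at 20 and 94.5% with the other lists at the length of the WT list. Deletion partners of at least 10 were 94.6% (100 bp), 95.2% (50 bp), 78.7% (value of 5) and 99.6% (value of 20). Rescue partners were 75.2%, 77.4%, 45.7% and 96.2% in the same settings. A match was found in 39.8% of windows with the planned looser motif, which leaves the A of CCA free, and in 68.1% with one that also leaves the A of AG free, added after seeing the data. With the last pattern, found in 32.7% of all promoter windows, the WT summit was on the 5′ side at 54.7% of motifs. This share covers unlike groups. For motifs on the strand of the gene the WT summit was on the 5′ side at 108 of 139 (70.1 to 83.8). For motifs on the other strand it was there at 26 of 100 (18.4 to 35.4). These intervals do not overlap, and the difference was not tested. Inside gene spans alone, 2 of the gene lists exceeded the share of all genes, against 6 within 10 kb; the cause was not tested. No paired analysis was possible because the lists carry no replicate numbers, and leaving out a replicate was not possible for the same reason.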

Other observations

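Some genes held several strong shared sites. GSE1, a subunit of a corepressor complex, had 9 inside its span of 506689 bp on chromosome 16, with values from 11.7 to 31.5 in WT, 15.6 to 54.6 in deletion and 9.90 to 49.0 in rescue. TANC2, a postsynaptic scaffold protein, had 5, with WT values from 10.0 to 12.3. NAV1, KALRN, PRKAG2, PRKCH and GPHN had 4 each. GPHN, which encodes the scaffold protein gephyrin, had the highest single value of these genes, 41.3 in WT, with a highest value of 76.1 in deletion and 60.3 in rescue. The densest run of strong shared sites, with steps of at most 10 kb, had 4 sites at KAZALD1 on chromosome 10, between 101042872 and 101068153, with WT values from 17.1 to 23.9. Most sites, 3834, had no other within 10 kb.

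The authors' deposited up list of 9603 regions held 0 of 4256 strong and 0 of 9834 weak shared sites. The down list of 364 regions held 0 strong and 5 weak shared sites. How these lists were made, and which groups they compare, is not given in the sources used here. Whether they leave out shared peaks by construction is unknown, so the counts of 0 are not read as a trait of these sites. The same shares over all WT summits were not computed. An up region lay within 10 kb of 11.9% of strong shared sites (95% Wilson interval 10.95 to 12.9) and of 11.1% of weak ones (10.5 to 11.7), intervals that overlap.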
